A study of Camelina sativa with 12 samples.

Results

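The 100 genes described here are those that stood higher in both *acdS* lines of *Camelina sativa* than in DH55 plants without the transgene, in salt-treated shoots. They were taken from the 89418 genes of the count table. Levels are given in CPM, the counts of a gene scaled to a library total of 1000000 counts. A gene qualified with a mean of at least 2 CPM in each *acdS* line and with all 6 *acdS* libraries above all 6 DH55 libraries. In all, 174 genes were separated in this way and 140 of them reached the minimum level. These were ranked by the log2 ratio of the smaller *acdS* group mean to the larger DH55 group mean, with 0.5 CPM added to each, and the first 100 were kept. The members were thus chosen by their CPM in the contrast between the *acdS* lines and DH55, and the values of that contrast are given below as a description without a test.

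The study grew 4 groups of plants with NaCl at 192 mM (15 dS m-1) and sequenced whole shoots at 28 days, after 21 days of salt, with 3 biological replicates for each group. The *rolD::acdS* plants carried the *acdS* gene of *Pseudomonas* sp. UW4 behind the *rolD* promoter of *Agrobacterium rhizogenes*, which is most active in roots but not confined to them. The *35S::acdS* plants carried the same gene behind the double CaMV *35S* promoter, which is constitutive. Each transgenic group was an individual, single-copy line made in the same cultivar, DH55. The transgene and the history of the line therefore cannot be told apart, and the level of *acdS* itself was not analysed here. Below, DH55 groups and DH55 libraries are those without the transgene. The *P. migulae* 8R6 group was DH55 grown in soil inoculated with that bacterium, an endophyte with its own ACC deaminase. The control was DH55 with the MgSO4 buffer only. The paper states that soil was given either bacteria or this buffer, without naming the transgenic plants. All 12 libraries came from salt-treated plants. Library totals lay between 10520627 and 23587748 counts, so that 1 CPM stood for 10.5 to 23.6 counts.

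ACC deaminase, the product of *acdS*, cleaves 1-aminocyclopropane-1-carboxylate, the immediate precursor of ethylene, and so limits the amount of this stress hormone that a plant can make. *C. sativa* is an allohexaploid. Most of its genes have homeologues on other chromosomes, and reads from near-identical copies may have been split between them by the counting. The libraries are from whole shoots, so fewer cells of a type and less RNA per cell cannot be told apart. The chromosome of a gene is part of its identifier, and the identifiers number genes in order along each chromosome. Of the 100 members, 4 had a name in the annotation of the study and 96 did not. That annotation, as held here, covers 1231 of the 89418 genes, those that the study listed. A missing name therefore does not mark a gene as uncharacterised. The sequences of the members were not analysed here. All 5 photosynthesis genes of the study's lists had counts in every library. Of these, Csa08g050560, a photosystem I subunit gene, lay between 27.1 and 76.4 CPM. Csa01g001010, a photosystem II gene, fell to 0.150 CPM in *35S::acdS* replicate 1, and Csa17g025490 encodes chlorophyllase 1, an enzyme of chlorophyll degradation. The paper states that photosynthetic genes are expressed in roots too, so these counts do not check the tissue.

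The members fell into 2 kinds, and the larger differences were nearly all of the first. Chromosome 4 held 43 of the 100 members but 4.78% of the 56932 genes with enough counts to be tested, and no other chromosome held more than 6. Of the 43, 38 lay in 1 continuous stretch near the end of chromosome 4, between Csa04g058080 and Csa04g065890, and 3 lay between this stretch and the last gene of the chromosome. The first 36 members by rank were all genes of the stretch. The remaining 59 members were spread over all 20 chromosomes and differed less.

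The libraries of the same DH55 group did not have a common level over the stretch, and this has to be stated before any value. In *P. migulae* 8R6 replicate 2 the median member of the stretch had 3.26% of the mean CPM of the 6 *acdS* libraries, and in control replicate 2 it had 2.30%. In *P. migulae* 8R6 replicates 1 and 3 the median member had 51.9% and 47.9%, and in control replicate 3 it had 48.6%. In control replicate 1 it had 80.4%. The 6 *acdS* libraries lay between 95.3% and 104.9%. The DH55 libraries thus formed 3 levels that cut across the bacterial treatment, with 1 library near the *acdS* level, 3 near the middle and 2 close to 0. The label of the genes as higher in the *acdS* lines holds by the rule, but for the stretch its size was set by which DH55 libraries were averaged.

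**Figure D1:**
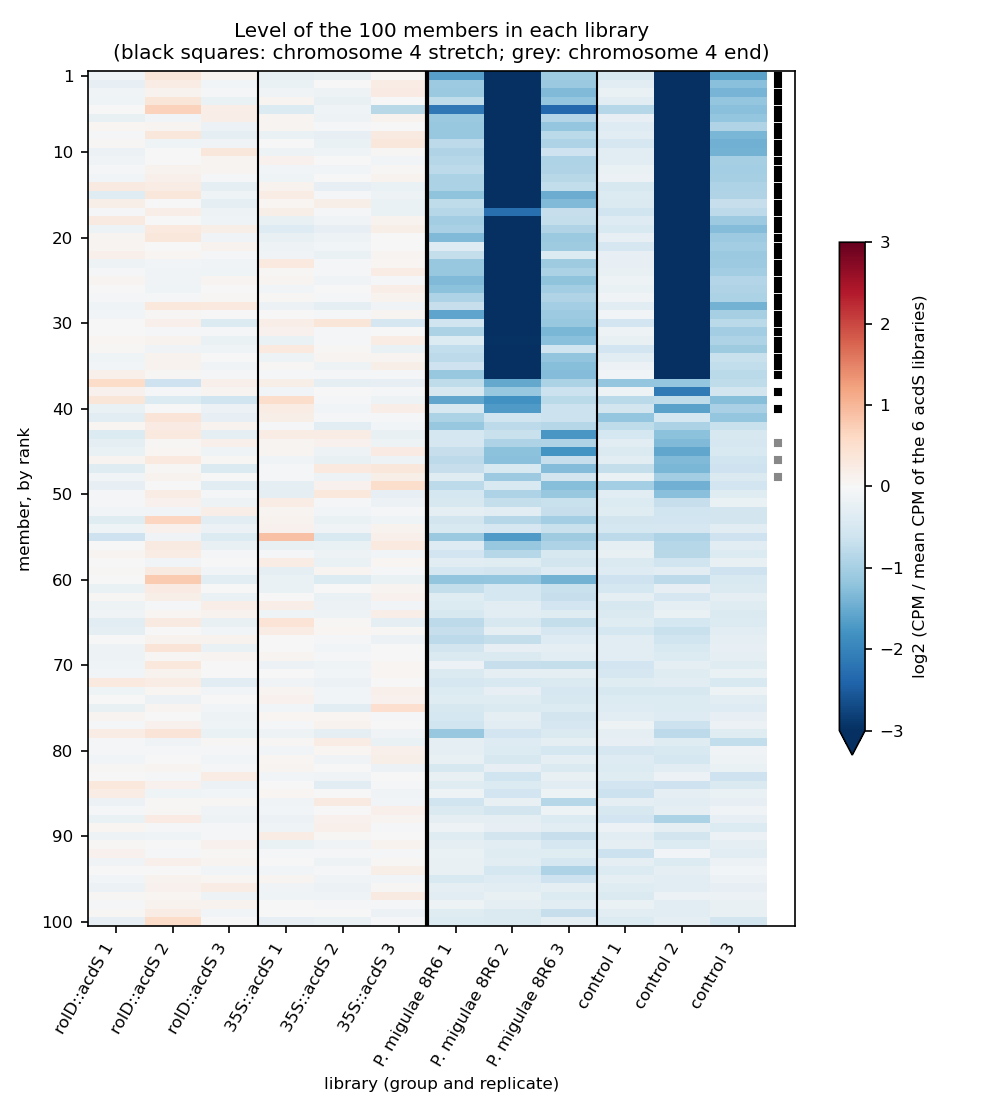
Log2 ratio of the CPM of each member (rows, by rank) to its mean CPM in the 6 *acdS* libraries, for the 12 libraries (columns), with 0.05 CPM added to both. Black squares on the right mark the 38 members of the chromosome 4 stretch, of which those at ranks 1 to 36 are dark blue in *P. migulae* 8R6 replicate 2 and control replicate 2, and grey squares mark the 3 members near the end of the chromosome.

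The stretch was delimited after its values were seen. It runs from the first to the last gene of the longest series on chromosome 4 with at least 2 CPM on average and with both replicate 2 libraries under 25% of the median of the 12 libraries, allowing gaps of 5 genes. It held 485 genes of the table and 254 of them had a mean of at least 2 CPM. In 241 of the 254, both replicate 2 libraries were under 25% of the median. Among all 44050 genes at that level there were 242 such genes, so 1 lay elsewhere. For other pairs of a *P. migulae* 8R6 library with a control library, the same count was at most 53, reached with *P. migulae* 8R6 replicate 3 and control replicate 2, and it was 0 for every pair with control replicate 1 or control replicate 3.

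The level changed from 1 expressed gene to the next at the start of the stretch, and only in part at its end. Csa04g058040, the last expressed gene before it, had 5.37, 6.51 and 4.85 CPM in the *rolD::acdS* libraries and 2.70, 3.65 and 5.05 CPM in the *35S::acdS* libraries. It had 3.63, 5.13 and 3.90 CPM in the *P. migulae* 8R6 libraries and 3.999, 4.42 and 3.94 CPM in the control libraries, so the groups overlapped. Csa04g058090, the second expressed gene inside, had 27.2, 27.8 and 24.4 CPM in the *rolD::acdS* libraries and 29.0, 27.7 and 25.5 CPM in the *35S::acdS* libraries. The same gene had 16.0, 0.325 and 13.6 CPM in the *P. migulae* 8R6 libraries and 25.8, 0.0632 and 16.1 CPM in the control libraries. It is not a member, because control replicate 1 lay inside the range of the *acdS* libraries. At the far border, Csa04g065890 had no count in either replicate 2 library, while Csa04g065900, the next expressed gene, had 3.77 CPM in *P. migulae* 8R6 replicate 2 and 3.35 CPM in control replicate 2, beside 2.86 to 6.27 CPM in the *acdS* libraries. Csa04g065910, the gene after that, had 1.82 CPM in *P. migulae* 8R6 replicate 2 but 0.379 CPM in control replicate 2, beside 1.396 to 2.48 CPM in the *acdS* libraries. Beyond this border the replicate 2 libraries stayed low to a lesser degree up to the end of the chromosome, as given below for the genes there.

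**Figure D2:**
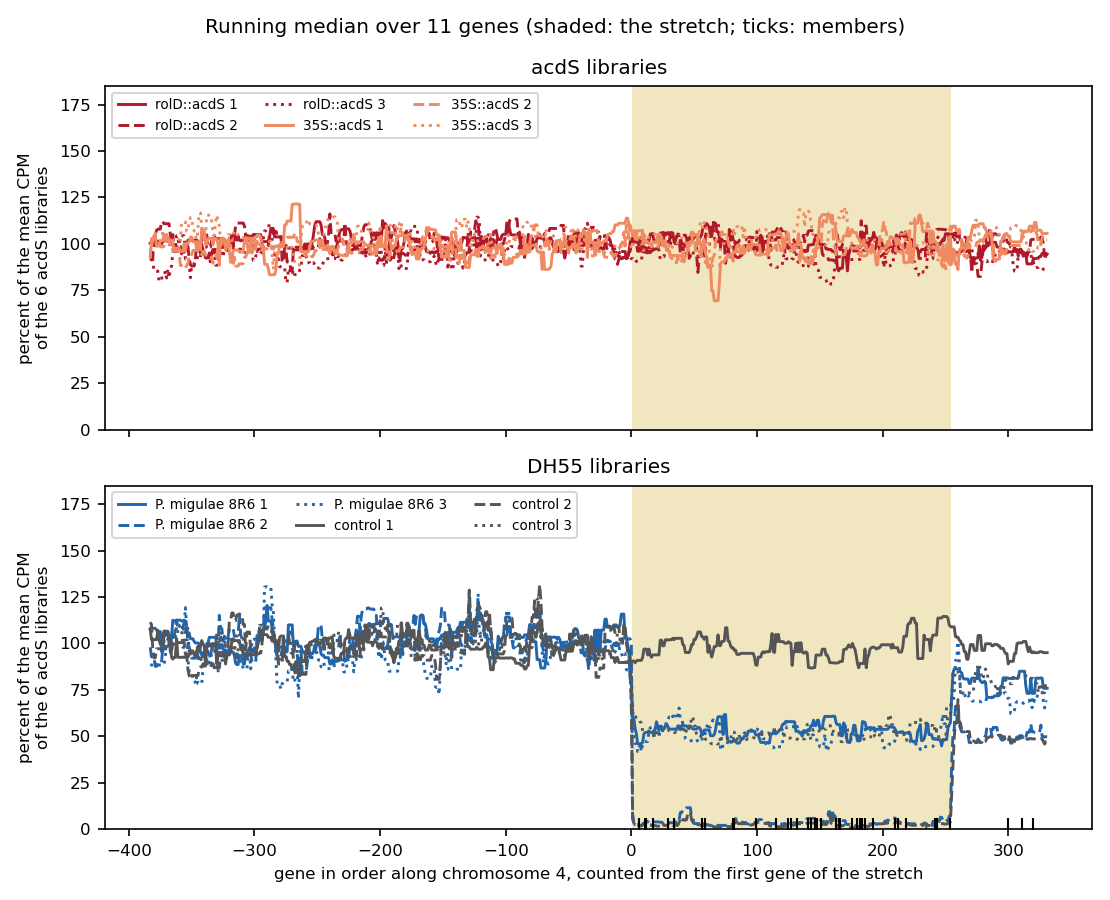
Running median over 11 genes of the level in each library, as percent of the mean CPM of the 6 *acdS* libraries, against gene order on chromosome 4 (only genes with a mean of at least 2 CPM). Inside the shaded stretch of 254 genes the *acdS* libraries and control replicate 1 stay near 100%, 3 DH55 libraries lie near 50% and both replicate 2 libraries lie near 0; ticks mark members.

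A scan of all chromosomes in windows of 20 expressed genes looked for other places where a library left the median of the 12. With a limit of 0.5 on the log2 scale, 8 regions were found among 43122 windows for each library. On chromosome 4, 5 of them covered this same stretch, 1 for each DH55 library except control replicate 1, and those of both replicate 2 libraries ran on beyond it to Csa04g068160. The other 3 were in *P. migulae* 8R6 replicate 3, on chromosomes 11, 12 and 20, and spanned at most 8 windows. Before the stretch, the 1764 expressed genes of chromosome 4 had medians between 95.5% and 103.6% of the *acdS* mean in every library.

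Membership within the stretch depended on 1 library. All 38 members of the stretch lay in the same pattern, with both replicate 2 libraries as the lowest of the 12. So did 251 of the 254 expressed genes of the stretch, which was delimited by the low level of these libraries. In 36 of the 38 members control replicate 1 was the highest DH55 library. The exceptions were Csa04g065200 and Csa04g063240. In the 218 expressed genes of the stretch that are not members, the median was 99.4% in control replicate 1, 3.12% in *P. migulae* 8R6 replicate 2 and 2.41% in control replicate 2. *P. migulae* 8R6 replicates 1 and 3 had 53.3% and 51.6% there, and control replicate 3 had 52.0%. Members and other genes of the stretch thus differed in control replicate 1 and little elsewhere. The rule fixed this difference, because a gene could become a member only with control replicate 1 below all *acdS* libraries. Of the 254 expressed genes, control replicate 1 was below all *acdS* libraries in 36, within their range in 195 and above all of them in 23. Among all 44050 genes at that level it was below all *acdS* libraries in 11.7%. The other 5 DH55 libraries were all below all *acdS* libraries in 206 of the 254. Taken singly, each of the 5 was below all *acdS* libraries in 221 to 254 genes of the stretch. Over all genes at that level the share of each was 9.18% to 25.2%. DNA was not measured in the files used here, and the number of copies of these genes in each plant was not tested.

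**Figure D3:**
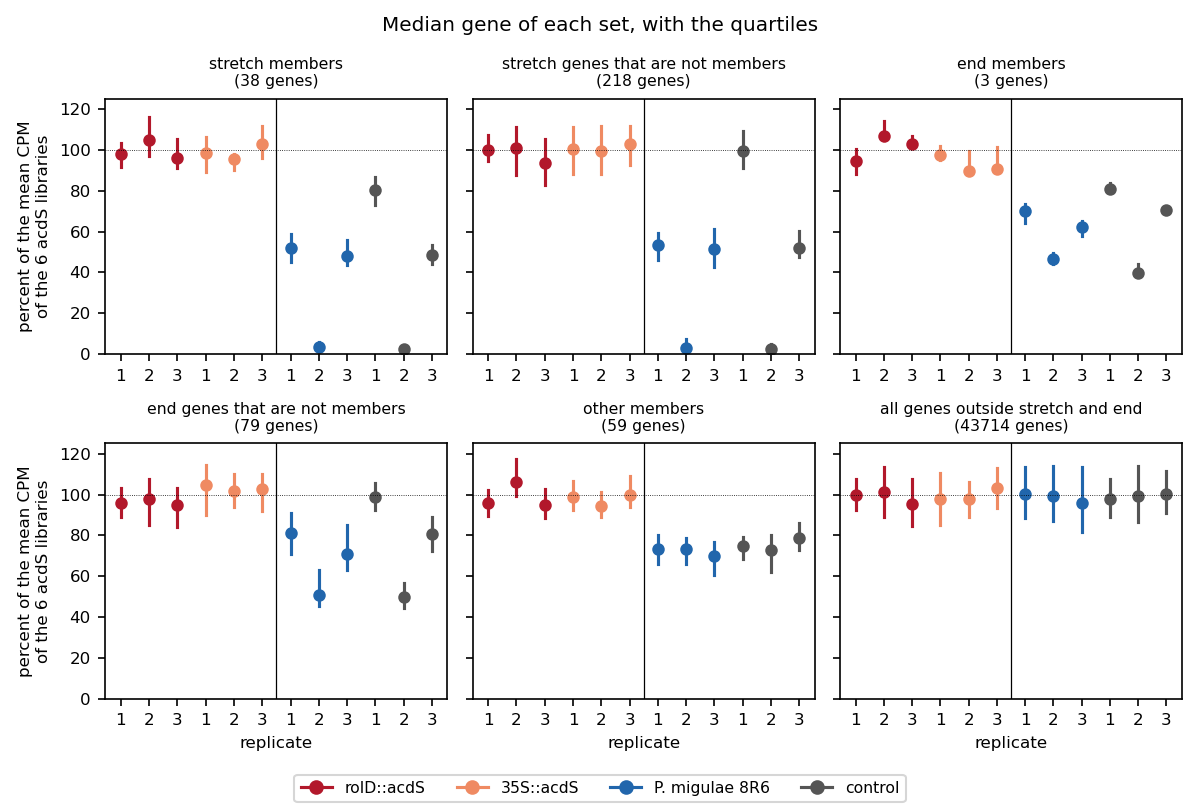
Median level (points) and quartiles (bars) of 6 sets of genes in each library, as percent of the mean CPM of the 6 *acdS* libraries, with replicates on the horizontal axis and groups by colour. Control replicate 1 lies at 80.4% in the 38 stretch members and at 99.4% in the 218 stretch genes that are not members. The rule selected for this gap. The 59 other members lie between 69.8% and 78.8% in all 6 DH55 libraries.

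The highest-ranked member was Csa04g059190, with a log2 ratio of 1.25 by the rule. It had 7.87, 10.98 and 9.32 CPM in *rolD::acdS* and 7.14, 7.39 and 8.83 CPM in *35S::acdS*. It had 2.73, 0 and 4.05 CPM with *P. migulae* 8R6 and 6.13, 0 and 2.80 CPM in the control, where the zeros are the replicate 2 libraries. The lowest *acdS* library was 1.16 times the highest DH55 library, so the separation of the groups was narrow although their means differed 2.62 times. Csa04g063140, at rank 2, had 7.82, 10.9 and 8.74 CPM in *rolD::acdS* and 8.04, 9.31 and 10.9 CPM in *35S::acdS*, against 4.33, 0.455 and 4.24 CPM with *P. migulae* 8R6 and 7.33, 0.126 and 3.86 CPM in the control. In both genes replicate 2 was the lowest library of each DH55 group, and control replicate 1 was the highest of the 6 DH55 libraries.

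Csa04g062740, Csa04g063570 and Csa04g058130 followed at ranks 3 to 5 with log2 ratios of 1.16, 1.14 and 1.14. Csa04g062740 had between 15.1 and 19.7 CPM in the *acdS* libraries, against 7.70, 0.585 and 6.66 CPM with *P. migulae* 8R6 and 14.5, 0.569 and 6.32 CPM in the control. Csa04g063570 had between 19.2 and 28.7 CPM in the *acdS* libraries, against 13.2, 0.520 and 9.95 CPM with *P. migulae* 8R6 and 18.1, 0.821 and 10.0 CPM in the control. Csa04g058130 lies near the start of the stretch and was uneven among the *acdS* libraries, with 67.0, 109.7 and 77.8 CPM in *rolD::acdS* and 50.6, 62.2 and 38.2 CPM in *35S::acdS*. It had 15.3, 1.23 and 13.1 CPM with *P. migulae* 8R6 and 37.4, 1.71 and 28.5 CPM in the control.

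Ranks 6 to 15 were Csa04g061590, Csa04g062200, Csa04g062540, Csa04g063260, Csa04g062790, Csa04g063720, Csa04g062380, Csa04g062450, Csa04g059200 and Csa04g063480, with log2 ratios between 1.03 and 1.11. Their levels differed widely and the pattern over libraries did not. Csa04g062450 had between 27.7 and 33.6 CPM in the *acdS* libraries, against 15.6, 1.04 and 17.0 CPM with *P. migulae* 8R6 and 26.6, 1.20 and 15.0 CPM in the control. Csa04g063480 had between 3.70 and 6.05 CPM in the *acdS* libraries, against 2.03, 0 and 1.67 CPM with *P. migulae* 8R6 and 3.60, 0 and 2.54 CPM in the control. The most abundant member of the stretch, Csa04g060630 at rank 25, averaged 112 ± 7.75 CPM in *rolD::acdS* and 108 ± 7.71 CPM in *35S::acdS*, and 32.3 ± 23.4 CPM with *P. migulae* 8R6 and 54.9 ± 46.4 CPM in the control (SD, n = 3 each). Its replicate 2 libraries had 5.39 CPM with *P. migulae* 8R6 and 6.38 CPM in the control.

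The low level of the replicate 2 libraries was at the limit of the counts for many members. Over the 38 members and these 2 libraries there are 76 values. Of these, 16 were 0 counts, 18 were 1 to 3 counts (0.0632 to 0.195 CPM) and 42 were higher. Against a floor of 3 counts in the library, the *acdS* mean was at least 11.2- to 54.2-fold higher in the 16 cases. In the 42 cases it was 2.22 to 54.8 times higher, with a median of 20.4. These figures cover counting error only. No member had 3 counts or fewer in all 6 DH55 libraries.

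Over the 38 members of the stretch, the mean of the 6 *acdS* libraries was 2.55 times the mean of the 6 DH55 libraries in the median gene. Without the replicate 2 libraries it was 1.73 times the mean of the other 4, and against control replicate 1 alone it was 1.24 times. The last ratio follows from the rule, which kept only genes with control replicate 1 below all *acdS* libraries. Over all 254 expressed genes of the stretch, the median in control replicate 1 was 97.5% of the *acdS* mean. The coefficient of variation of the median member was 11.6% among the 6 *acdS* libraries and 79.3% among the 6 DH55 libraries. For the 59 members outside chromosome 4's end it was 11.1% among the *acdS* libraries and 11.8% among the DH55 libraries. There the *acdS* mean was 1.34 times the DH55 mean in the median gene, and 1.34 times also without the replicate 2 libraries.

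The members lay close to each other along the stretch. Counting as a run any members within 50 identifier steps of the next, the largest run held 23 members, from Csa04g061590 to Csa04g063720. The 131 tested genes between them are not members, and 1 of those was separated. Other runs on the stretch held 6, 5 and 3 members, from Csa04g065070 to Csa04g065890, from Csa04g060510 to Csa04g061050 and from Csa04g059190 to Csa04g059280. The 3 members beyond the stretch, Csa04g067620, Csa04g067790 and Csa04g067910, formed another run. Elsewhere there were 2 runs of 2 members, on chromosome 10 and on chromosome 18.

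The members beyond the stretch shared a weaker form of the pattern with the genes around them. Csa04g067620 had 65.0, 74.5 and 62.9 CPM in *rolD::acdS* and 56.9, 52.3 and 55.4 CPM in *35S::acdS*. It had 35.7, 25.5 and 38.0 CPM with *P. migulae* 8R6 and 48.0, 24.4 and 40.4 CPM in the control, so replicate 2 was again lowest in both DH55 groups. Over the 82 expressed genes between the stretch and the end of the chromosome, the median was 50.4% of the *acdS* mean in *P. migulae* 8R6 replicate 2 and 49.2% in control replicate 2. It was 80.9% and 70.8% in *P. migulae* 8R6 replicates 1 and 3, and 97.7% and 80.5% in control replicates 1 and 3. Csa04g034300 and Csa04g037650, the remaining members on chromosome 4, lie before the stretch and showed nothing of this. Csa04g034300 had between 5.21 and 6.49 CPM in the *acdS* libraries, against 4.59, 4.55 and 4.24 CPM with *P. migulae* 8R6 and 4.40, 4.42 and 4.66 CPM in the control.

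The annotated member of the stretch was Csa04g063240 (AT2G45310), at rank 40. It encodes UDP-D-glucuronate 4-epimerase 4 (GAE4), an enzyme that in *A. thaliana* makes UDP-D-galacturonate, the sugar donor for pectin in the cell wall. It had 3.57, 4.09 and 3.61 CPM in *rolD::acdS* and 4.81, 3.87 and 4.69 CPM in *35S::acdS*, against 2.94, 1.23 and 2.62 CPM with *P. migulae* 8R6 and 2.80, 1.33 and 2.08 CPM in the control. Replicate 2 was lowest in both DH55 groups but not close to 0, unlike most genes around it. Csa04g065070, at rank 38, was alike in this, with 6.37 CPM in *P. migulae* 8R6 replicate 2 and 3.22 CPM in control replicate 2, beside 13.4 to 15.4 CPM in the *acdS* libraries.

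Of the other 3 annotated members, Csa05g044810 (AT1G60730), at rank 37, was the first member outside the stretch. It encodes a protein of the aldo/keto reductase family, which are NAD(P)-linked oxidoreductases. It had 7.61, 3.35 and 5.70 CPM in *rolD::acdS* and 5.79, 4.17 and 4.32 CPM in *35S::acdS*, against 3.03, 1.75 and 2.67 CPM with *P. migulae* 8R6 and 2.27, 2.27 and 3.01 CPM in the control. The lowest *acdS* library, *rolD::acdS* replicate 2, was 1.11 times the highest DH55 library.

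Csa09g064600 (AT3G54820), at rank 41, encodes the aquaporin PIP2;5, a water channel of the plasma membrane. It had 4.08, 6.70 and 4.28 CPM in *rolD::acdS* and 5.79, 4.91 and 4.87 CPM in *35S::acdS*, against 2.64, 3.38 and 3.24 CPM with *P. migulae* 8R6 and 2.27, 3.54 and 2.25 CPM in the control. The replicate 2 libraries were the highest of both DH55 groups here, the opposite of the stretch. Csa09g031770 (AT3G43610), at rank 47, encodes a protein of the Spc97/Spc98 family, which in *A. thaliana* and other eukaryotes binds tubulin where microtubules start. It had 29.9, 39.6 and 28.5 CPM in *rolD::acdS* and 37.9, 47.1 and 48.6 CPM in *35S::acdS*, against 23.8, 28.3 and 15.7 CPM with *P. migulae* 8R6 and 23.7, 14.8 and 24.97 CPM in the control. Its lowest *acdS* library was 1.01 times its highest DH55 library. No other gene of the study's annotation shared the *A. thaliana* ortholog of any of these 4, and their homeologues were not analysed here.

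**Figure D4:**
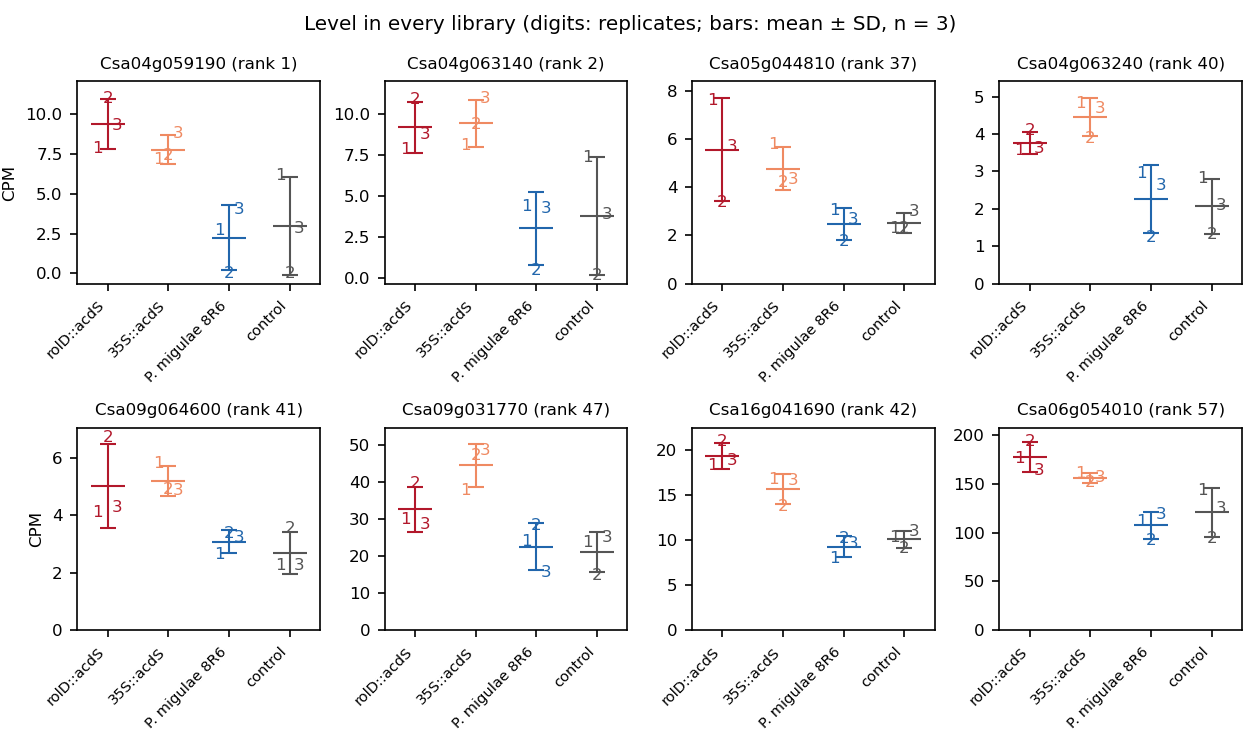
CPM of 8 members in every library, with digits for replicates and bars for the mean ± SD (n = 3) of each group. In the members of the stretch (ranks 1, 2 and 40) replicate 2 is the lowest library of both DH55 groups, while Csa16g041690 and the other genes outside the stretch have no common lowest replicate.

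Among the 59 members outside the end of chromosome 4, the ratio of the smaller *acdS* mean to the larger DH55 mean lay between 1.16 and 1.89, with a median of 1.25. The gap between the groups was small beside the spread. The lowest *acdS* library was at least 1.1 times the highest DH55 library in 9 of the 59 and at least 1.25 times in 1, and the median was 1.03. The 1 gene was Csa16g041690, at rank 42, which had 18.3, 20.9 and 18.8 CPM in *rolD::acdS* and 16.7, 13.8 and 16.6 CPM in *35S::acdS*. It had 7.96, 10.2 and 9.61 CPM with *P. migulae* 8R6 and 10.3, 9.10 and 10.98 CPM in the control.

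Csa05g081840 and Csa07g043080 were other members of this kind near it in rank. Csa05g081840, at rank 39, had 3.40, 1.95 and 1.71 CPM in *rolD::acdS* and 3.83, 2.52 and 2.34 CPM in *35S::acdS*, against 0.865, 0.715 and 1.48 CPM with *P. migulae* 8R6 and 1.47, 1.52 and 1.06 CPM in the control. Csa07g043080, at rank 43, had 12.9, 21.0 and 13.97 CPM in *rolD::acdS* and 19.9, 19.9 and 14.5 CPM in *35S::acdS*, against 11.8, 10.7 and 5.04 CPM with *P. migulae* 8R6 and 11.7, 7.20 and 12.1 CPM in the control. The lowest *acdS* library was 1.13 times the highest DH55 library in Csa05g081840 and 1.06 times in Csa07g043080. The most abundant of all members, Csa06g054010 at rank 57, averaged 178 ± 14.9 CPM in *rolD::acdS* and 156 ± 4.72 CPM in *35S::acdS*, and 108 ± 13.9 CPM with *P. migulae* 8R6 and 121 ± 25.2 CPM in the control (SD, n = 3 each).

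The neighbours Csa10g051720 and Csa10g051730 on chromosome 10 have consecutive identifiers and were at ranks 72 and 78. Csa10g051720 had 57.9, 54.6 and 37.0 CPM in *rolD::acdS* and 43.7, 41.7 and 47.6 CPM in *35S::acdS*, against 33.4, 34.3 and 34.9 CPM with *P. migulae* 8R6 and 36.8, 37.0 and 34.6 CPM in the control. Csa10g051730 had 21.2, 23.8 and 15.9 CPM in *rolD::acdS* and 16.5, 15.1 and 16.9 CPM in *35S::acdS*, against 8.26, 12.2 and 13.5 CPM with *P. migulae* 8R6 and 14.9, 10.6 and 14.2 CPM in the control. In both, *rolD::acdS* replicate 3 was the lowest of its group and the other 2 *rolD::acdS* libraries were the highest of the 12. The run on chromosome 18 was Csa18g037420 at rank 91 and Csa18g037540 at rank 49, with 9 tested genes between them that were not separated.

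The end of the list was not set off from the genes left out. Csa03g024280 and Csa03g038350, at ranks 99 and 100, had log2 ratios of 0.21 and 0.20. Csa02g051420 and Csa03g051630, the next 2 by rank and left out, both had 0.20. Csa03g038350 averaged 12.1 CPM in *rolD::acdS* and 9.76 CPM in *35S::acdS*, and 8.41 CPM with *P. migulae* 8R6 and 8.15 CPM in the control. For Csa02g051420, just outside, the means were 20.4 CPM in *rolD::acdS* and 20.3 CPM in *35S::acdS*, and 17.6 CPM with *P. migulae* 8R6 and 17.22 CPM in the control.

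Complete separation in the direction of the rule was found in 166 of the 56932 tested genes (0.292%), and in the opposite direction, with all *acdS* libraries below all DH55 libraries, in 223 (0.392%). All 100 members met it because the rule asked for it. Of 10 gene lists from the annotation of the study, the cell wall, miscellaneous enzyme and transport lists held 1 member each, which were Csa04g063240, Csa05g044810 and Csa09g064600. In these lists 5 of 74, 2 of 79 and 5 of 58 tested genes were separated in the opposite direction. The lists for photosynthesis, secondary metabolism, auxin, ethylene, stress and protein degradation held no gene separated in the direction of the rule. Of 123 tested transcription factor genes, 3 were separated in the opposite direction and 1, Csa12g014370, in the direction of the rule, below the minimum level; it encodes a protein of the B3 family and was named after its values were seen. The study chose these genes on these samples, so the counts are not independent evidence of a direction.

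Whether the members also differed between the *acdS* lines was tested, since the rule did not use that contrast. With edgeR's quasi-likelihood test, 0 of the 100 members and 0 of the 56932 tested genes (0%) had an adjusted p of at most 0.05 with a log2 fold change past 1, for *rolD::acdS* minus *35S::acdS*. At an unadjusted p under 0.05 there were 3 members and 12.9% of all tested genes, and DESeq2 called 0 members and 107 genes. The median log2 fold change was 0.02 over the members and 0.00 over all tested genes, and 51 of the 100 members were higher in *rolD::acdS*, against 50.4% of all tested genes. The rule asked for a minimum level in both lines and for every *acdS* library above all DH55 libraries. It also ranked on the lower mean of the *acdS* lines, so this contrast is not wholly independent of the rule.

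The members with the smallest p in this contrast were Csa16g041690 and Csa08g006390. Csa16g041690 averaged 19.3 ± 1.41 CPM in *rolD::acdS* and 15.7 ± 1.64 CPM in *35S::acdS*, with a log2 fold change of 0.31 (SE 0.125, edgeR adjusted p = 0.362). Csa08g006390 had 6.96, 9.86 and 7.98 CPM in *rolD::acdS* and 19.6, 7.74 and 11.9 CPM in *35S::acdS*, with a log2 fold change of -0.66 (SE 0.288, edgeR adjusted p = 0.375). In the second gene the difference rested on *35S::acdS* replicate 1, without which it was -0.22. For members of the stretch the model's single dispersion for each gene included the DH55 libraries. Fitted on the 6 *acdS* libraries alone, 5 of the 100 members had an unadjusted p under 0.05, against 14.6% of all tested genes, and 0 members and 15 genes were called.

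Between *P. migulae* 8R6 and the control, the same test called 0 of the 100 members and 1 of the 56932 genes (0.00176%), the photosystem I gene Csa08g050560 named above, which is not a member. At an unadjusted p under 0.05 there was 1 member, beside 9.62% of all tested genes, and DESeq2 called 0 members and 210 genes. The median log2 fold change was -0.11 over the members and 0.00 over all tested genes, and 27 of the 100 members were higher with *P. migulae* 8R6, against 50.5% of all tested genes. The rule ranked on the higher of the DH55 means and capped every DH55 library, so this contrast is not wholly independent of it. Members of the stretch also share 1 pattern over the libraries and are not separate observations of a direction. Over the 38 members of the stretch the median was -0.28. It was -0.64 without *P. migulae* 8R6 replicate 1 and -0.58 without replicate 3 of that group. Without control replicate 2 it was -0.83, and without control replicate 3 it was -0.20. But it was 0.20 without *P. migulae* 8R6 replicate 2 and 0.42 without control replicate 1. The sign of the difference over the stretch thus changed with the libraries kept. Without both replicate 2 libraries the median was -0.33 for the stretch and -0.19 over all 100 members, and 0 members and 22 genes were called. An unadjusted p under 0.05 was then found in 11 of the 100 members, against 11.6% of all tested genes. Of these 11, 8 were members of the stretch and 3 were not.

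**Figure D5:**
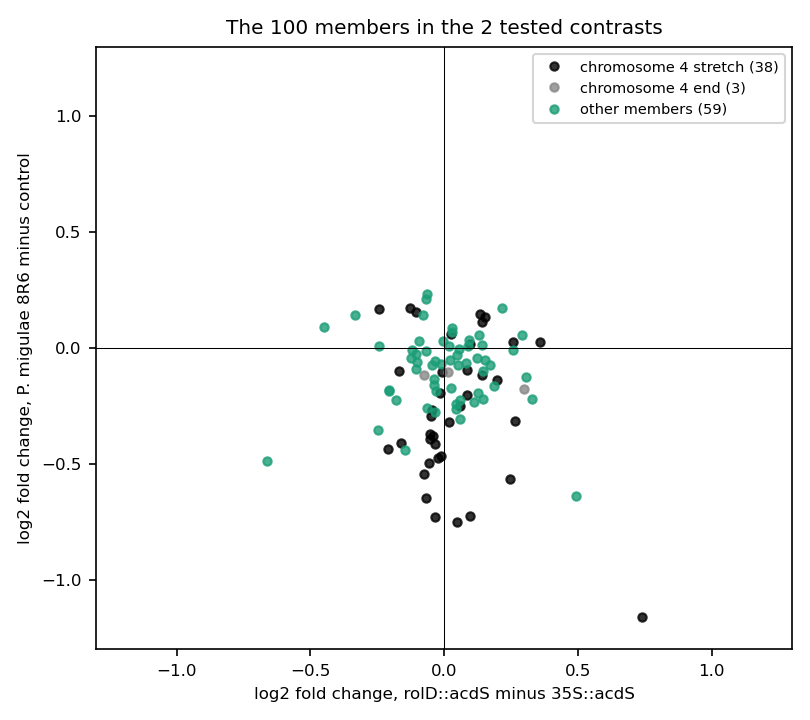
Log2 fold change of the 100 members in *rolD::acdS* minus *35S::acdS* (horizontal) and in *P. migulae* 8R6 minus control (vertical), from the edgeR fit. No member was called in either contrast, and the points lie between -0.66 and 0.74 on the horizontal axis and between -1.16 and 0.23 on the vertical axis.

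The members with the smallest p in this contrast were Csa15g007010 and Csa15g011440, both outside the stretch. Csa15g007010 had 22.7, 22.9 and 19.2 CPM with *P. migulae* 8R6 and 33.4, 30.0 and 37.6 CPM in the control, and these groups did not overlap. Its log2 fold change was -0.64 (SE 0.215, edgeR adjusted p = 0.366). In the *acdS* lines it had 51.2, 88.9 and 40.6 CPM in *rolD::acdS* and 44.6, 38.6 and 44.7 CPM in *35S::acdS*. Csa15g011440 had 11.4, 11.8 and 10.2 CPM with *P. migulae* 8R6 and 12.7, 12.5 and 13.9 CPM in the control, with a log2 fold change of -0.22 (SE 0.105, edgeR adjusted p = 0.529). The largest difference in size was that of Csa04g058130 in the stretch, at -1.16 (SE 0.816, edgeR adjusted p = 0.687), where both groups contained a library close to 0.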

How the data were processed

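Per the labels and the study's methods, shoot RNA was sequenced from TruSeq Stranded libraries. Reads were trimmed with Trimmomatic and mapped with STAR to NCBI *C. sativa* release 100, as named by the authors without versions. The deposited table is named for CPM, but the authors' values are whole counts of reads per gene with different totals (10520627 to 23587748), so they were analysed as counts and CPM were computed from them. No identifier matched the RefSeq gene table (0 of 89418). Names come from the study's annotation, of which the *rolD::acdS* list was held only in part.

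Counts were fitted with edgeR 4.0.16 in R 4.3.3 (TMM, 1 model of 4 groups, quasi-likelihood test, Benjamini-Hochberg adjustment) for genes reaching 0.5 CPM in 3 or more libraries. A call needed an adjusted p of at most 0.05 and a log2 fold change past 1. SEs were derived from the fold change and F. DESeq2 1.42.0, an exact test in edgeR at a fixed biological coefficient of variation (BCV) of 2 or 0.2, other filters, a replicate block and left-out libraries were alternatives. The fit was tested on simulated data.

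The members and lists were chosen with earlier results of these data known. Genes were named by rank (1 to 15, and those on either side of the threshold), by annotation, by the smallest p in each tested contrast and by position. Csa04g060630, Csa04g065070, Csa06g054010, Csa05g081840 and Csa07g043080 were added for their level or rank after their values were seen.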

Additional observations from a re-analysis of the deposited data

How the results depend on the processing

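Leaving out 1 library at a time gave 218 to 556 separated genes, against 174, and kept 19 to 89 of the 100 members among the first 100. The lowest number was without control replicate 1, when 213 genes of the chromosome 4 stretch met the rule and all 100 places went to them; 66 members were kept without control replicate 3 and 54 without *rolD::acdS* replicate 3. Without the replicate 2 libraries of *P. migulae* 8R6 and the control (chosen after seeing the data), 371 genes were separated and 68 members were kept. Without those 2 and control replicate 1, also chosen after seeing the data, 1019 genes were separated and 21 members were kept. Other scalings, minimum levels and offsets kept 70 to 98 members. For *rolD::acdS* minus *35S::acdS*, 0 genes were called, against 107 by the DESeq2 Wald test, 1370 with BCV 0.2, 15 with only the 6 libraries compared and 0 to 1 with 1 library left out. For *P. migulae* 8R6 minus control, 1 gene was called, against 20 without a filter on low counts, 2 with a filter of 1 CPM, 210 by the DESeq2 Wald test, 0 with BCV 2, 876 with BCV 0.2, 0 with only the 6 libraries compared, 0 to 80 with 1 library left out (80 without control replicate 2) and 22 without both replicate 2 libraries. With BCV 0.2, 1 member, Csa04g058130, was among those called, and under every other setting no member was called in either contrast. The median log2 fold change of the members ranged from -0.03 to 0.05 for *rolD::acdS* minus *35S::acdS* and from -0.30 to 0.00 for *P. migulae* 8R6 minus control when 1 library was left out. Leaving out a library can only keep or raise the number of separated genes, because fewer libraries then have to be apart. The cause of the other differences was not tested.

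Correlations of deviations from the group means did not settle whether the replicate numbers pair the libraries. Between same-numbered libraries they were 0.17, -0.06 and 0.02 for the *acdS* lines, and 0.38, 0.26 and -0.42 for *P. migulae* 8R6 and the control. Between libraries of different numbers they ran from -0.15 to 0.13 for the *acdS* lines, and from -0.63 to 0.56 for *P. migulae* 8R6 and the control. With a replicate block, 0 and 15 genes were called, the medians of the members were 0.01 and -0.11, and no member was called.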
